A study of Mus musculus with 3008 samples.

Results

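Among regulatory T cells (Tregs) of the mouse colon lamina propria, 6.03% of 2354 cells carried 3 or more transcripts of 10 genes of DNA synthesis and mitosis. These were 34 of the 610 cells of the first library and 6.19% of the 1744 cells of the second. Transcripts were counted as unique molecular identifiers (UMIs) in single cells captured by inDrops, a droplet method that primes at the poly(A) tail. A cell had to hold 1000 or more UMIs, and its UMIs of Mki67, Top2a, Birc5, Cdk1, Ccnb1, Ccnb2, Rrm2, Tyms, Ube2c and Cenpa had to sum to 3 or more. The series held 3008 cells: 2 colon libraries, called colon 1 and colon 2, and 1 spleen library. All cells came from male B6 Foxp3-Ires-Gfp reporter mice aged 7 months and were sorted as live DAPI- TCRb+ CD4+ GFP+ cells. Colons had been digested with collagenase and dispase, and spleens were dissociated mechanically. By its title colon 2 is a second replicate, but its sample type repeats the first replicate's number, and no label names an animal. Cells were therefore not treated as replicates, each library is given apart, and no test across animals was made. All intervals are 95% intervals of counting error.

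A dividing T cell first makes the enzymes and histones that copy its DNA, and later the cyclins, kinases and spindle proteins that separate the chromosomes, and many of these transcripts are removed when division ends. Tregs carry the transcription factor Foxp3 and restrain immune responses. In the gut wall many Tregs have an effector state, with interleukin 10, granzyme B or the interleukin 33 receptor ST2, and local division is one way such a population is maintained.

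Colon 1 held 610 cells of 1000 or more UMIs, of which 34 met the rule, a share of 5.57% (3.89 to 7.70, exact Clopper-Pearson). In colon 2 the share was 6.19% (5.11 to 7.43). In spleen 24 cells met it, a share of 3.92% (2.52 to 5.77). The 3 intervals overlapped. A cell with more UMIs has more chances to reach 3, so each cell was also thinned to 1000 UMIs. Colon 1 then had a share of 2.13% (1.14 to 3.62), colon 2 of 2.35% (1.69 to 3.18) and spleen of 1.31% (0.565 to 2.56), and the intervals again overlapped. The cells that met the rule are called cycle-gene cells here, since the values below bear out the name dividing Treg for only some of them.

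The cycle-gene cells fell into classes by how many of the 10 genes they held. UMIs of 3 or more different genes were found in 14 cycle-gene cells of colon 1 and 24 of colon 2, called multi-gene cells here, a class defined after its values were seen. A pair of genes made up the sum in 8 and 24 cells, and a single gene in 12 and 60 cells. Cenpa, which encodes the histone that marks centromeres, was that single gene in 7 and 39 cells. In both libraries together 72 cells held a single gene, 46 of them Cenpa alone, 32 held a pair and 38 held 3 or more. Multi-gene cells were 2.30% (1.26 to 3.82) of colon 1, 1.38% (0.884 to 2.04) of colon 2 and 0.653% (0.178 to 1.66) of spleen, where 4 were found. After thinning, 4 multi-gene cells in colon 1 made 0.656%, 12 in colon 2 made 0.688%, and in spleen 0 were left, which allows a share of up to 0.59997% (upper bound of the Clopper-Pearson interval).

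**Figure D1:**
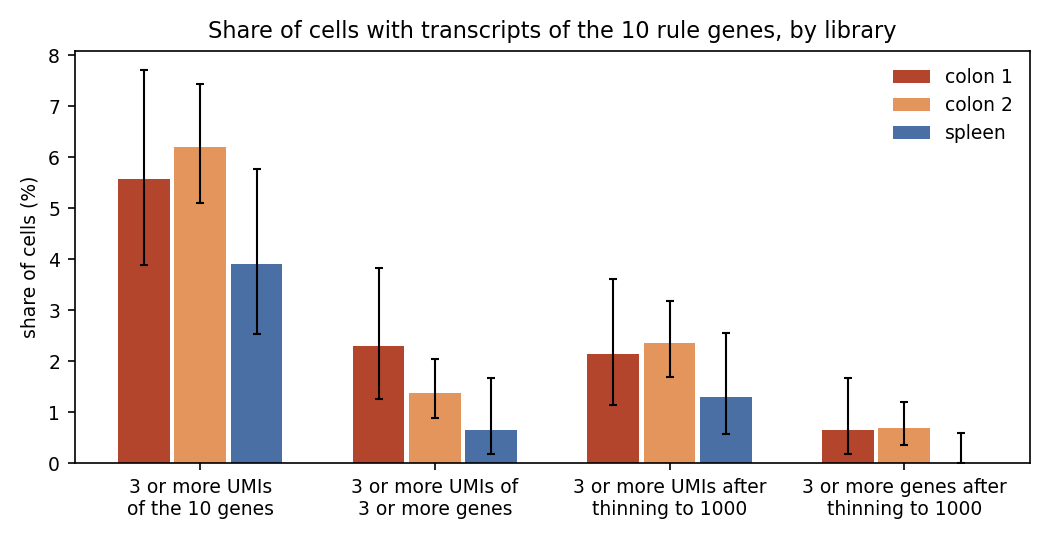
Share of cells (%) of colon 1, colon 2 and spleen with 3 or more UMIs of the 10 genes, with UMIs of 3 or more different genes, and both after thinning each cell to 1000 UMIs. Bars are shares and lines are 95% Clopper-Pearson intervals of counting error. The first group of bars stands at 5.57%, 6.19% and 3.92%, and requiring 3 different genes lowers them to 2.30%, 1.38% and 0.653%.

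The 10 genes chose the cells, so their values are given as a description. In multi-gene cells the S-phase gene Rrm2, the small subunit of ribonucleotide reductase, had a UMI in 9 of 14 cells of colon 1 and 11 of 24 of colon 2. Tyms, thymidylate synthase, had one in 7 and 8 of these cells. Top2a, the topoisomerase that untangles chromosomes, was found in 10 and 15, and Mki67, the coat protein of mitotic chromosomes, in 8 and 15. Among genes of G2 and mitosis, Birc5, the chromosomal passenger protein survivin, was seen in 7 and 18 and Ccnb2, a mitotic cyclin, in 4 and 13. Ube2c, which loads ubiquitin for the anaphase-promoting complex, was seen in 10 and 14, and Cenpa in 10 and 17. The genes of the mitotic kinase Cdk1 and its partner cyclin Ccnb1 were the least often seen, in 2 and 6 and in 3 and 5 cells. Over all cells of 1000 or more UMIs, Cenpa had a UMI in 10.7%, 11.6% and 7.67% of the cells of colon 1, colon 2 and spleen, while Mki67 had one in 2.30%, 2.47% and 2.61%. The sort held a single cell type, so no cells known to lack these genes were at hand to measure free RNA, and its part in the single-gene cells was not tested.

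Promoters are shown for Ccnb2 and Cdk1, of the 10 genes, and for Cks1b and Hmgb2, outside the rule and higher in cycle-gene cells. They were picked with their motif matches known, as examples that hold several, and are not typical of the cycle genes looked at. Many late cell cycle genes are known to carry a cell cycle genes homology region (CHR) and CCAAT boxes, and many S-phase genes E2F sites. The sequences are from RefSeq (GRCm38.p6, the assembly of mm10), run 5′ to 3′ on the gene's strand, and cover 250 bases before to 50 after the start. Capitals mark the CHR letters TTTGAA or TTCAAA and the CCAAT box letters CCAAT or ATTGG. Ccnb2 lies at chr9:70421505-70421804 on the minus strand, Cdk1 at chr10:69352863-69353162 on the minus strand, Cks1b at chr3:89418242-89418541 on the minus strand and Hmgb2 at chr8:57511593-57511892 on the plus strand.
Ccnb2: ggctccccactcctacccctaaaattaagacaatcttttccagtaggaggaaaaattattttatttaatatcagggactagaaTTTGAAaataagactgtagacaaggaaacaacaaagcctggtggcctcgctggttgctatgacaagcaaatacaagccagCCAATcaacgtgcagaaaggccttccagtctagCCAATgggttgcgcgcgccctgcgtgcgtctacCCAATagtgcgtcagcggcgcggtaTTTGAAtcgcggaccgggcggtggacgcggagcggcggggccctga
Cdk1: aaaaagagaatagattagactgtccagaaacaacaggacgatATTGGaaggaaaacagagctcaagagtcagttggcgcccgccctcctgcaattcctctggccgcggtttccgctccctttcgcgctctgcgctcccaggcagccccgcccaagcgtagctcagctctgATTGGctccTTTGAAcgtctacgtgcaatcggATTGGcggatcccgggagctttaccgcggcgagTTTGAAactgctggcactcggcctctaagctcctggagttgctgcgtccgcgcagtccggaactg
Cks1b: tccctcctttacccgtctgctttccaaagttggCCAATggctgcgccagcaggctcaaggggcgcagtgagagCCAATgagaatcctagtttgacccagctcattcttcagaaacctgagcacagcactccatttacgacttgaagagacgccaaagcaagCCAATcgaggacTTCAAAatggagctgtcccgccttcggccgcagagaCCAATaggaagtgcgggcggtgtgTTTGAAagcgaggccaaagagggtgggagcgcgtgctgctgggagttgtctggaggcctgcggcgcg
Hmgb2: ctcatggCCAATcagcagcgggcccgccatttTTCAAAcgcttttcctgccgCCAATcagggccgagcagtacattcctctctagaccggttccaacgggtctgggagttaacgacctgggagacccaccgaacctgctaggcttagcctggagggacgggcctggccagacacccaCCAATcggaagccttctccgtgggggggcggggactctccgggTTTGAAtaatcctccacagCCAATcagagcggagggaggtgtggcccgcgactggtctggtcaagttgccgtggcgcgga

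Each of these 4 promoters held 2 CHR matches, with 3 CCAAT box matches in Ccnb2 and Cdk1 and 4 in Cks1b and Hmgb2. Those of Tyms, Tk1 and Tacc3, not shown, held none of the motifs searched, and that of Birc5 held an E2F site alone. Over the 10 genes of the rule, 6 promoters held the CHR letters and 8 a CCAAT box, searched on both strands. The shares over all 27025 promoters of the table were 18.1% and 37.9%. An E2F site, searched as TTTGGCGC, TTTCCCGC, TTTGGCGG, TTTCCCGG and TTCCCGCC with their reverse complements, was found in 1 of the 10 and in 4.99% of all promoters. Genes outside the rule that were at least 2-fold higher in multi-gene cells with both intervals past no difference had a promoter in the table in 83.2% of cases. CHR letters were in 29.5% of these, a CCAAT box in 67.4% and an E2F site in 25.6%. For the 5480 of 6825 measured genes with a promoter the shares were 12.1%, 38.8% and 9.53%, and for 66 of the 81 lower genes they were 9.09%, 28.8% and 12.1%. The 6825 are the genes counted for all cycle-gene cells, while the higher and lower genes came from the 4704 counted for multi-gene cells. The shares thus compare unlike gene sets. A match of letters is a description and not evidence of binding.

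For the comparison, each cycle-gene cell was set against the 3 cells of its library that held none of the 10 genes and were nearest in UMIs. Cycle-gene cells of colon 1 held 2532.5 UMIs in the median, against 2520.5 in matched cells, and both groups of colon 2 held 2580.5. The means lay further apart, at 3642.7 against 2635.1 UMIs in colon 1 and 3125.6 against 2764.3 in colon 2. Levels are taken from summed UMIs, so those of all cycle-gene cells also rest on deeper cells than those of matched cells. Depth was not matched in the multi-gene cells, which had medians of 6092.5 and 5131.5 UMIs, against 3331.5 and 3992.5 in their matched cells. Of the multi-gene cells 11 of 14 and 16 of 24 lay above the 95th percentile of all cells of their library, at 3654.3 and 3959.65 UMIs. Single-gene cells had medians of 2094 and 2021.5 UMIs. No doublet caller was run, and the part of doublets in the deepest cells was not tested.

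**Figure D2:**
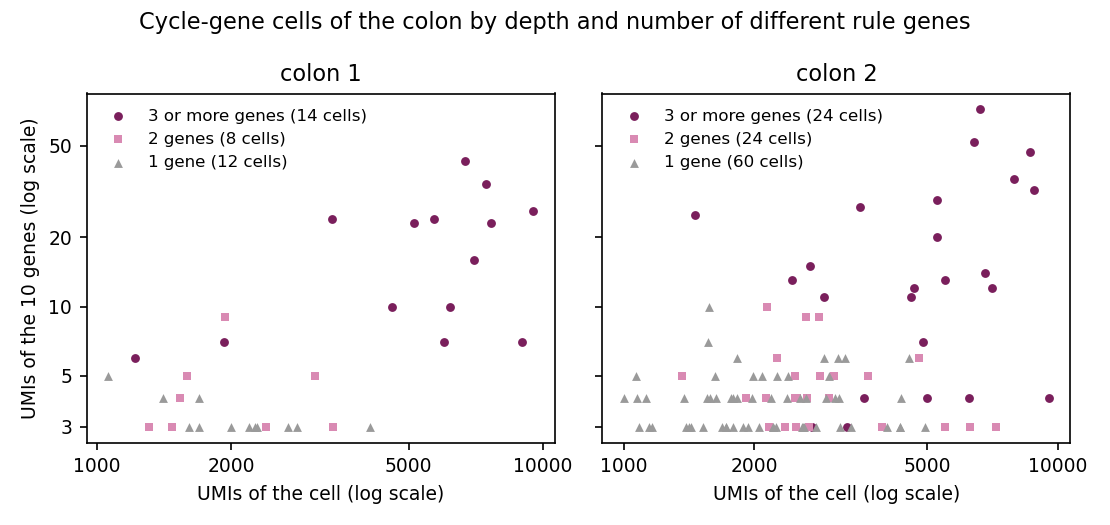
UMIs of the 10 genes against the total UMIs of each cycle-gene cell, both on log scales, in colon 1 and colon 2. Each point is a cell, marked by how many different genes of the rule it held. Single-gene cells lie at 3 to 5 UMIs of the 10 genes in colon 1 and 3 to 10 in colon 2, while multi-gene cells reach 43 and 72.

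The name Treg rests on the sort for GFP, and the markers here are a description. Foxp3 had a UMI in 20 of 34 cycle-gene cells of colon 1 and 46.3% of those of colon 2, against 55.9% and 49.1% of matched cells. The count of markers that follows does not require Foxp3. At least 2 of the 7 markers Foxp3, Il2ra, Ctla4, Ikzf2, Tnfrsf18, Cd3e and Cd4 were present in 31 of 34 cycle-gene cells of colon 1 and 99.1% of those of colon 2, against 100% and 97.8% of matched cells. All 14 and 24 multi-gene cells held 2 or more, with a median of 5. The 59 defining genes of 9 other cell types summed to 64.6 UMIs per 1000000 UMIs (CPM) in cycle-gene cells and 78.1 CPM in matched cells of colon 1, and to 100.7 and 146.3 CPM in colon 2. In cycle-gene cells 55 and 45 of these genes stood at 0, and 0 and 3 cells held 2 or more of them.

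Genes outside the rule that copy DNA were higher in cycle-gene cells of both libraries, and most of the difference lay in the multi-gene cells. The cells were chosen by genes of the same programme, so these values describe the chosen cells and test nothing. The DNA replication list of 45 genes summed to 5975 CPM in cycle-gene cells and 1436 CPM in matched cells of colon 1, a ratio of 4.16 (3.67 to 4.72). In colon 2 the sums were 3439 and 1405 CPM, a ratio of 2.45 (2.26 to 2.65). A gene was counted if it had 15 or more UMIs over both libraries, 5 or more in each and UMIs in 10 or more cells. It was called if its CPM ratio, over equally weighted libraries, was 2 or more, or 0.5 or less, in the same direction in each library. Of 6825 such genes, 7.69% were higher in cycle-gene cells and 5.95% were lower. With TMM scaling factors 6.23% were higher and 7.36% lower. These shares can include genes of few UMIs that pass 2-fold by counting error alone, so a list's count is read beside them. In the replication list 30 genes were counted, of which 27 were higher and 0 lower. A gene scarce in matched cells passes the count only if it is high in the others, so the 27 of 30 is no estimate for the whole list. The same limit holds for the counts of higher genes in the other lists below, mitosis and histones included. With an interval past no difference in each library as well, 1.95% of the genes were higher and 0.718% lower.

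Several replication genes were near or at 0 in matched cells. Tk1, thymidine kinase (chromosome 11, 117815526 to 117826092, minus strand, mm10), stood at 234.2 and 74.1 CPM in cycle-gene cells of colon 1 and colon 2, against 7.44 and 4.47 CPM in matched cells. The log2 ratios of Tk1 were 4.98 (2.99 to 8.09) and 4.05 (2.52 to 6.03). Uhrf1, which recruits the maintenance DNA methyltransferase, stood at 121.1 and 47.4 CPM, against 0 and 3.35 CPM. Dut, the dUTPase that keeps uracil out of DNA, stood at 484.4 and 165.9 CPM, against 29.8 and 46.9 CPM. Each of these genes was higher in cycle-gene cells of both libraries. Mcm5, a subunit of the replicative helicase, reached 169.6 and 157.005 CPM, against 44.7 and 37.96 CPM, with log2 ratios of 1.93 (0.84 to 3.08) and 2.05 (1.40 to 2.71).

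Pcna, the sliding clamp of DNA polymerase, was also common in matched cells. It stood at 1372.6 and 767.3 CPM in cycle-gene cells, against 401.8 and 495.7 CPM in matched cells, and 34.3% and 39.5% of matched cells held it. Without the cells above the 95th percentile of UMIs its log2 ratio over both libraries was -0.17, against 1.25 with them.

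The replication-dependent histones, which are made only while DNA is copied, had the highest ratio of the lists in multi-gene cells. In multi-gene cells the 25 histone genes of the table summed to 7101 and 3743 CPM, against 846.2 and 458.3 CPM in their matched cells, ratios of 8.39 (6.90 to 10.3) and 8.17 (6.73 to 9.96). Among all cycle-gene cells 16 of the 19 counted histone genes were higher. Hist1h2ai reached 508.7 and 168.9 CPM in cycle-gene cells, against 52.1 and 18.98 CPM in matched cells, and Hist1h2ab reached 581.3 and 136.3 CPM, against 48.4 and 16.7 CPM. The histone genes are near-identical copies, and the counting may have split or moved reads between them, so the sum is firmer than any single gene. Their transcripts mostly lack the poly(A) tail that the method primes on, so the levels are those of the captured part only. H2afx, a histone of the DNA damage response, was higher too (500.6 and 177.7 CPM, against 52.1 and 43.5 CPM). H2afz, a variant made outside replication, was not past 2-fold (2099 and 1819 CPM, against 1615 and 1663 CPM).

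Genes of mitosis outside the rule showed the same difference. The list of 58 genes summed to 6249 and 3954.8 CPM in cycle-gene cells, against 2162 and 1975 CPM in matched cells, ratios of 2.89 (2.59 to 3.23) and 2.002 (1.86 to 2.15). Of 32 counted genes 21 were higher and 0 lower. Ccna2, the cyclin of S phase and early mitosis (chromosome 3, 36564865 to 36572150, minus strand), had 19 and 25 UMIs in cycle-gene cells and none in matched cells. With the matched sums set to a floor of 3 counts per library, Ccna2 was 15.7-fold higher in cycle-gene cells, a value that is no lower bound. Cks1b, a subunit of cyclin-dependent kinases (chromosome 3, 89415472 to 89418383, minus strand), stood at 274.5 and 148.1 CPM, against 11.2 and 7.82 CPM. Tacc3, which stabilises spindle microtubules, had 16 and 31 UMIs in cycle-gene cells and 1 in each set of matched cells, log2 ratios of 5.12 (2.43 to 10.5) and 6.36 (3.78 to 11.7). Cdca8 and Cdca3, of the passenger complex and of mitotic entry, Knstrn of the kinetochore and Ncapd2 of the condensin complex were among the 15 highest genes by the smaller of both library ratios. Cks1b may share reads with a near-identical copy.

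Proteins of microtubules and chromatin gave abundant transcripts in cycle-gene cells. Stmn1 (chromosome 4, 134468320 to 134473843, plus strand), which encodes stathmin, a protein that takes microtubules apart, stood at 1017.3 and 873.9 CPM in cycle-gene cells, against 55.8 and 17.9 CPM in matched cells. The log2 ratios were 4.19 (3.41 to 5.07) and 5.61 (4.89 to 6.44). Stmn1 was present in 12 of 14 multi-gene cells of colon 1 and 21 of 24 of colon 2, in 0 of 12 and 4 of 60 single-gene cells, and in 5.88% and 2.78% of matched cells. Most multi-gene cells thus held it, and few of the single-gene cells. Stmn1 may share reads with a near-identical copy.

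Hmgb2 (chromosome 8, 57511907 to 57515999, plus strand), a DNA-bending protein, stood at 1291.9 and 802.8 CPM in cycle-gene cells, against 167.4 and 160.8 CPM in matched cells. It was present in 14 of 14 and 21 of 24 multi-gene cells. The tubulin genes Tuba1b and Tubb5 were at 1978 and 1428 CPM and at 1598.7 and 1069 CPM in cycle-gene cells, against 331.1 and 448.8 CPM and 357.2 and 317.1 CPM in matched cells. For these 3 genes the lowest log2 ratio of a library was 1.67, for Tuba1b in colon 2. Of 27 counted genes of the tubulin, HMG and chromatin list, 11 were higher in all cycle-gene cells. In multi-gene cells 18 of 27 were higher, Ran, Ranbp1, Ptma, Anp32b, Anp32e and Hmgb1 among them.

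**Figure D3:**
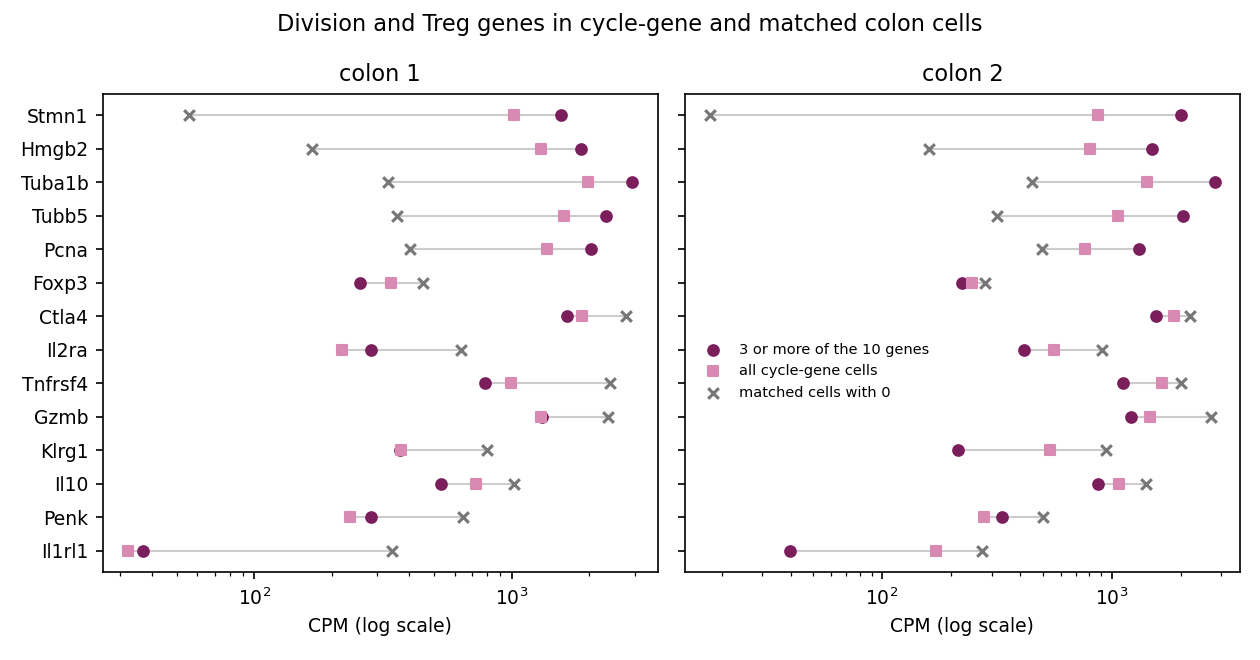
Level (CPM, log scale) of division genes and Treg genes in multi-gene cells (circles), all cycle-gene cells (squares) and the cells with none of the 10 genes matched to all cycle-gene cells (crosses), in colon 1 and colon 2. Stmn1, Hmgb2, Tuba1b and Tubb5 lie far to the right of the crosses, with Stmn1 at 1548 and 2010.5 CPM in multi-gene cells, and Il1rl1 lies to their left at 36.9 and 39.7 CPM.

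The multi-gene cells and the remaining cycle-gene cells were then compared with their own matched cells. In multi-gene cells 4704 genes were counted, of which 10.5% were higher and 11.1% lower. The higher ones included 20 of 23 replication genes, 20 of 29 mitosis genes and 13 of 15 histones. With both intervals past no difference these were 3.3% and 1.72%. The replication list stood at 8551 and 5674 CPM in multi-gene cells, against 1590.1 and 1727.9 CPM in matched cells, and the mitosis list at 8010.1 and 6731 CPM, against 2184 and 1833 CPM. In cycle-gene cells with 1 or 2 of the 10 genes 4578 genes were counted, of which 7.01% were higher and 4.41% lower, and 0.786% and 0.59% with both intervals past no difference. There 2 of 11 replication genes, 2 of 13 mitosis genes and 3 of 10 histones were higher. Their replication list stood at 1036.4 and 2111 CPM, against 1251 and 1246 CPM in matched cells, ratios of 0.828 (0.578 to 1.16) and 1.69 (1.504 to 1.91). Much of the replication sum in colon 2 came from few of these cells. Cells of 6286 and 5497 UMIs held 157.5 and 116.4 replication UMIs per 10000, against medians of 7.15 in single-gene cells and 10.5 in cells with a pair. The mitosis list of the cells with 1 or 2 of the 10 genes had ratios of 1.35 (1.08 to 1.67) and 1.13 (1.01 to 1.25). Of the genes higher in all cycle-gene cells 48% were also higher in multi-gene cells, which was 51.01% of the genes higher there. Without the cells above the 95th percentile of UMIs, 7.29% of 4720 genes were higher and 4.94% lower in cycle-gene cells, and 4 of 13 replication genes, 3 of 15 mitosis genes and 7 of 10 histones were higher.

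**Figure D4:**
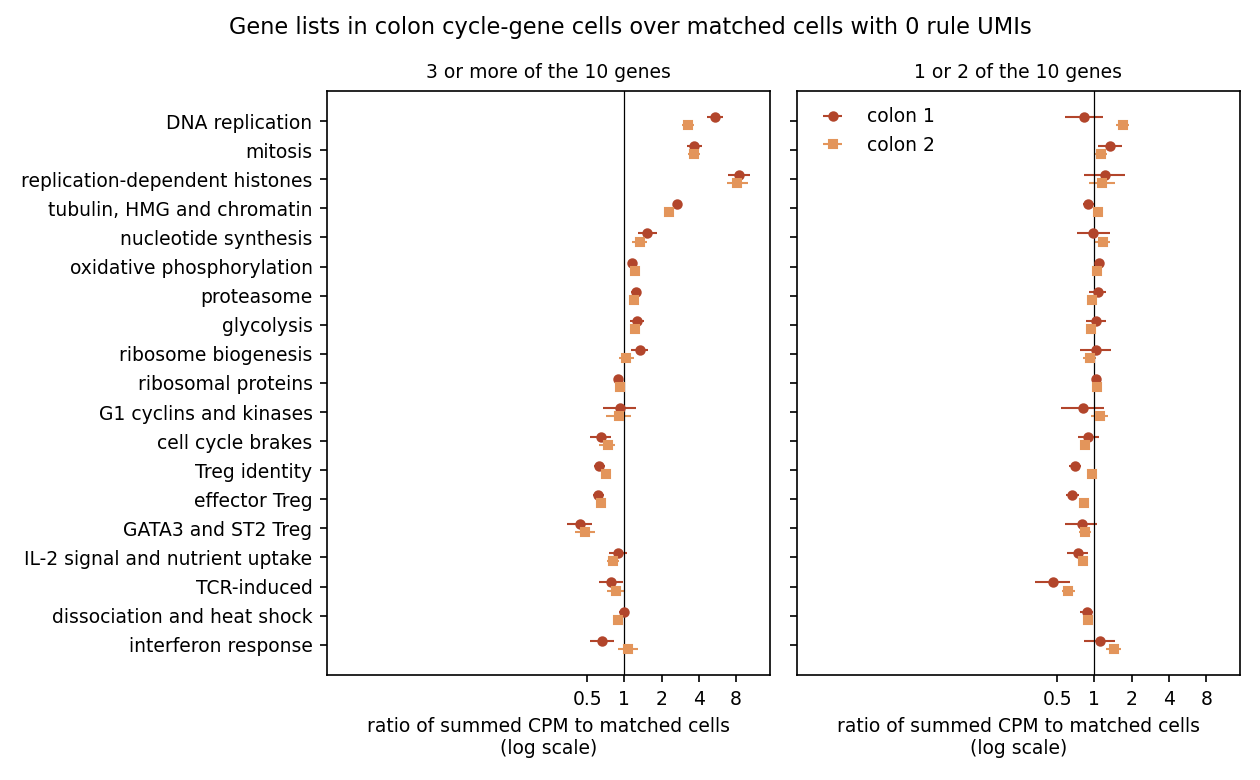
Ratio of the summed CPM of each gene list to matched cells with none of the 10 genes (log scale), for multi-gene cells on the left and cells with 1 or 2 of the 10 genes on the right. Circles are colon 1, squares colon 2 and lines 95% intervals of counting error. On the left histones lie at 8.39 and 8.17 and the GATA3 and ST2 list at 0.435 and 0.483, and on the right most lists lie near 1.

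Single cells were placed by their UMIs of the replication and mitosis lists per 10000 UMIs. The 95th percentile of matched cells, 39.2 and 44.3 for replication and 49.3 and 49.4 for mitosis, served as the bound. The share of matched cells above each bound was set by this choice. Multi-gene cells were chosen by genes of the same programme, so the shares describe the cells and test nothing. Of multi-gene cells 13 of 14 in colon 1 and 18 of 24 in colon 2 lay above at least 1 bound, against 9.80% and 9.88% of matched cells. In colon 1, 7 of the 13 lay above both, 3 above the replication bound alone and 3 above the mitosis bound alone. In colon 2, 9 of the 18 lay above both, 2 above replication alone and 7 above mitosis alone. The median multi-gene cell held 83.9 and 29.7 replication UMIs per 10000 in colon 1 and colon 2, and 74.6 and 72.4 mitosis UMIs. Single-gene cells lay above a bound in 1 of 12 and 5 of 60 cases, 8.33% in each library, and cells with a pair of the 10 genes in 1 of 8 and 6 of 24. After thinning to 1000 UMIs, with the bounds taken anew, 13 of 14 and 17 of 24 multi-gene cells lay above a bound, against 6.86% and 6.17% of matched cells.

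**Figure D5:**
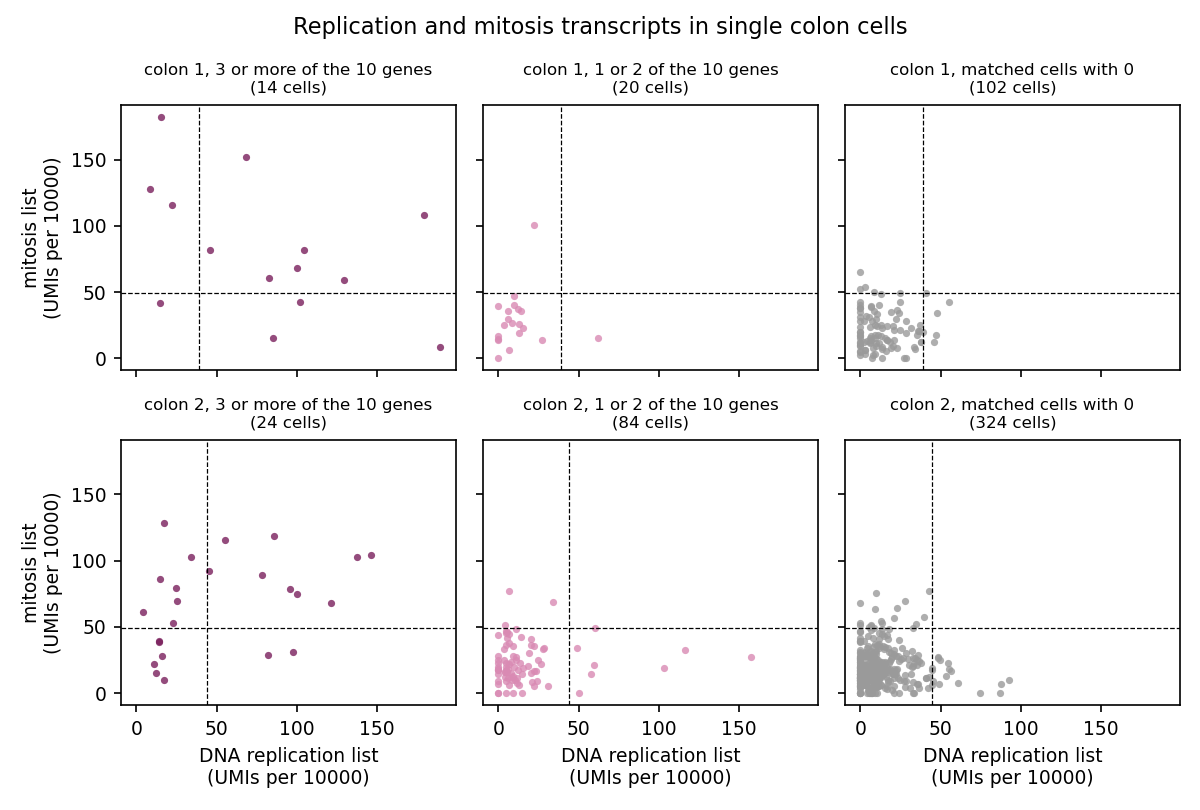
Replication list against mitosis list in single cells (UMIs per 10000 UMIs of the cell), for colon 1 above and colon 2 below. Columns from left to right are multi-gene cells, cells with 1 or 2 of the 10 genes, and matched cells with none, and dashed lines are the 95th percentiles of matched cells. In the left column 13 of 14 and 18 of 24 cells lie beyond a line.

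Just inside the threshold, cells with exactly 3 UMIs of the 10 genes numbered 13 in colon 1 and 37 in colon 2. Their replication list stood at 696.2 and 2845 CPM, against 760.99 and 1370 CPM in the 21 and 80 cells just outside it with exactly 2 UMIs. Stmn1 stood at 0 and 245.3 CPM, against 58.5 and 36.3 CPM. Cells at the threshold of colon 1 thus showed no more of either than cells below it. Those of colon 2 had higher sums of both, but much of their replication sum came from few cells. Cells of 6286 and 5497 UMIs among them held 157.5 and 116.4 replication UMIs per 10000, so the sum does not describe the typical cell at the threshold.

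The supply of nucleotides and energy differed less. Of 23 counted genes of nucleotide synthesis 5 were higher (Ctps, Gart, Paics, Pfas and Shmt2) and Cad was lower in cycle-gene cells, and Gart was on the other side of no difference without the deepest cells. The list summed to 2973 and 2336 CPM in multi-gene cells, against 1938 and 1758 CPM in matched cells, ratios of 1.53 (1.29 to 1.83) and 1.33 (1.15 to 1.54). Oxidative phosphorylation had ratios of 1.15 (1.08 to 1.21) and 1.21 (1.16 to 1.27) in multi-gene cells, the proteasome 1.24 (1.13 to 1.37) and 1.20 (1.11 to 1.29), and glycolysis 1.27 (1.11 to 1.44) and 1.22 (1.11 to 1.33). Ribosomal proteins stood lower, at 0.887 (0.869 to 0.905) and 0.930 (0.915 to 0.945). Oxidative phosphorylation stood at 17867 and 16258 CPM in all cells with none of the rule's genes. In the deeper ones matched to multi-gene cells it stood at 20842 and 18736 CPM. The proteasome list rose likewise, from 5611 and 5720 CPM to 6784 and 6711 CPM. Nucleotide synthesis, glycolysis and ribosomal proteins were also higher in the deeper ones. The part of depth in these ratios was not tested.

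Among genes that gate entry into the cycle, the G1 list stood nearer to matched cells and the list of brakes stood lower. The G1 list, of D-type cyclins and their kinases, had 1 of 9 counted genes higher and 0 lower. Ccnd2 stood at 387.6 and 479.9 CPM in cycle-gene cells, against 580 and 522.5 CPM in matched cells. The list of 13 cell cycle brakes had ratios of 0.720 (0.627 to 0.824) and 0.798 (0.740 to 0.860) in all cycle-gene cells. In multi-gene cells they were 0.644 (0.526 to 0.785) and 0.731 (0.630 to 0.847), with 3 of 12 counted genes lower and 1 higher. Of all genes counted there 11.1% were lower and 10.5% higher. Among the 13 brakes Cdkn2c, an inhibitor of the D-type cyclin kinases and an E2F target, was higher in all cycle-gene cells (121.1 and 74.1 CPM, against 37.2 and 45.8 CPM). Gadd45a, a growth arrest gene, was lower (32.3 and 26.7 CPM, against 93.01 and 46.9 CPM), with both intervals reaching no difference, and had 0 UMIs in the multi-gene cells of each library, against 13 and 16 in their matched cells. Without the deepest cells its log2 ratio over both libraries was 0.13. Cdkn1a, the p21 inhibitor, stood at 242.2 and 305.1 CPM, against 342.3 and 301.5 CPM. In all cells with none of the 10 genes the brakes list stood at 3687 and 3635 CPM. It stood at 2614 and 2597 CPM in the deeper ones matched to multi-gene cells. The part of depth in the ratios of the brakes was not tested.

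Treg identity genes stood at levels near or below those of matched cells. Foxp3 (chromosome X, 7573644 to 7595245, plus strand) stood at 339.1 and 245.9 CPM in cycle-gene cells, against 450 and 280 CPM in matched cells, with both intervals including no difference. It was seen in 11 of 14 and 16 of 24 multi-gene cells and in 26 of 42 and 37 of 72 of their matched cells. Ikzf2, the factor Helios, stood at 605.6 and 527.3 CPM, against 561.8 and 548.2 CPM. The identity list had ratios of 0.640 (0.595 to 0.689) and 0.870 (0.836 to 0.905) in all cycle-gene cells, and of 0.629 (0.569 to 0.694) and 0.713 (0.662 to 0.768) in multi-gene cells. None of the 15 counted identity genes was called in either direction in all cycle-gene cells. Ctla4, the inhibitory receptor, was lower within 2-fold, at 1865 and 1872 CPM, against 2779 and 2191 CPM.

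In multi-gene cells 2 of 14 counted identity genes were called lower, both receptors, which is near the 11.1% called lower of all genes counted there. Il2ra, the interleukin 2 receptor alpha chain, stood at 282.6 and 413.2 CPM in multi-gene cells, against 634.7 and 777.4 CPM in matched cells, log2 ratios of -1.17 (-1.89 to -0.50) and -0.91 (-1.38 to -0.47). Tnfrsf4, the costimulatory receptor OX40, stood at 786.3 and 1120.5 CPM, against 2354 and 1969 CPM. Both were lower in each library.

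Genes of the colonic effector state were lower in cycle-gene cells. The effector list of 18 genes summed to 6387 and 9838 CPM, against 10302 and 12888 CPM in matched cells, ratios of 0.620 (0.572 to 0.671) and 0.763 (0.734 to 0.793). In multi-gene cells its ratios were 0.618 (0.555 to 0.687) and 0.652 (0.605 to 0.702), with intervals that overlapped those of the identity list in each library. In all cells with none of the rule's genes the effector list stood at 11551 and 13707 CPM. It stood at 9247 and 11179 CPM in the deeper ones matched to multi-gene cells. The part of depth in the effector ratios was not tested. Past 2-fold in all cycle-gene cells were 2 genes of the effector list, Cxcr6 on 2 and 31 UMIs and Tigit on 2 and 6, and 0 were higher, beside 5.95% lower and 7.69% higher over all counted genes. Thinning put Cxcr6 on the other side of no difference. Gzmb, granzyme B (chromosome 14, 56258838 to 56262260, minus strand), stood at 1291.9 and 1472 CPM, against 2351 and 2712 CPM, log2 ratios of -0.86 (-1.12 to -0.61) and -0.88 (-1.02 to -0.74). It was seen in 44.1% and 47.2% of cycle-gene cells and in 52.9% and 58.6% of matched cells. Klrg1, an inhibitory receptor of terminal effector cells (chromosome 6, 122270596 to 122282882, minus strand), stood at 368.6 and 214.6 CPM in multi-gene cells, against 764.4 and 936.95 CPM in matched cells. It was found in 4 of 14 and 4 of 24 multi-gene cells, against 15 of 42 and 32 of 72 matched cells. Il10 stood at 726.7 and 1078 CPM in cycle-gene cells, against 1015.7 and 1411 CPM, and its log2 ratio over both libraries was -0.01 in multi-gene cells.

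The interleukin 33 receptor ST2 was low in multi-gene cells of both libraries. Il1rl1, which encodes it (chromosome 1, 40429570 to 40465415, plus strand), had 3 and 5 UMIs in multi-gene cells, 36.9 and 39.7 CPM, against 327.6 and 227.4 CPM in matched cells. The log2 ratios were -3.15 (-5.48 to -1.52) and -2.52 (-4.19 to -1.22), and the level over both libraries was 7.25-fold lower. Among all cycle-gene cells it stood at 32.3 and 171.8 CPM, against 342.3 and 273.6 CPM. Penk, which encodes an opioid peptide precursor and came from 2 and 3 multi-gene cells, stood at 282.6 and 333.8 CPM, against 1146.5 and 753.6 CPM. Gata3, the factor that goes with ST2 in these Tregs, stood at 371.4 and 361.4 CPM in cycle-gene cells, against 353.4 and 486.8 CPM.

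Genes induced by the T cell receptor and by stress were lower or level. The TCR-induced list had ratios of 0.629 (0.524 to 0.752) and 0.684 (0.621 to 0.753) in all cycle-gene cells, with Cd83 and Nfkbid lower and 0 of 8 higher. In cells with 1 or 2 of the 10 genes its ratios were 0.460 (0.329 to 0.630) and 0.613 (0.542 to 0.692) and in multi-gene cells 0.785 (0.623 to 0.983) and 0.854 (0.726 to 1.001). Hspa1b, a heat-shock protein gene that tissue digestion can induce, stood at 64.6 and 139.2 CPM in cycle-gene cells, against 264.2 and 355.1 CPM, while the list of 20 dissociation and heat-shock genes had ratios of 0.922 (0.854 to 0.995) and 0.885 (0.849 to 0.923). Il7r and Cish, of cytokine signalling, were also lower. The 10 lowest genes by the naming rule, Impa2 and Mapk8 first among them, rested on 0 to 5 UMIs in the cycle-gene cells of a library.

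Spleen cells that met the rule shared the replication genes. Their replication list stood at 3582 CPM, against 1127 CPM in 72 matched spleen cells, a ratio of 3.18 (2.64 to 3.82), and Hmgb2 at 1533 CPM, against 250.4 CPM. Tuba1b stood at 257.9 CPM in these cells, against 430.6 CPM. Barcodes shared by libraries numbered 9 between colon 1 and colon 2, 5 between colon 1 and spleen and 11 between colon 2 and spleen, and 1 cycle-gene cell, of colon 2, had its barcode in spleen too.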

How the data were processed

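Single Tregs were encapsulated by inDrops, per the labels' protocols, and read on a NextSeq500. TopHat2 and SAMtools, with the mm10 genome, stand in the submitters' processing notes, which give no order or version. The gene annotation and how UMIs were collapsed are not stated there. The table deposited by the authors holds UMI counts per gene and cell, not normalized, for 23725 genes, and every column matched a labelled cell. The libraries held 1253246 (colon 1), 3916649 (colon 2) and 1255946 (spleen) UMIs, with median cells of 1767, 2026.5 and 1847 UMIs. Gene positions are from GENCODE vM21.

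Counts were summed over cells and scaled to CPM. Ratios carry exact conditional binomial intervals, CPM exact Poisson intervals and shares exact Clopper-Pearson intervals, at 95%. They cover counting error only, and the spread between cells and animals is not in them. Sums of 0 were set to a floor of 3 counts. Thinning used a fixed seed. The named genes are the 15 highest and 10 lowest counted genes by the smaller of both library log2 ratios, up to 4 genes of each of 30 lists, the 10 genes of the rule and a fixed set of Treg and cycle genes. Some of these genes are not reported here, in the counts over settings included. Other genes named in the text were chosen after their values were seen. The members and lists were chosen with earlier results of these data known. Multi-gene cells and the rule without Cenpa were added after seeing the data. The ratios were checked on simulated counts, where nearly all genes changed 4-fold and a minority of those changed 2-fold were called, and some unchanged genes were called too, more of them lower than higher. Alternatives included factors from edgeR 4.0.16 (TMM) and DESeq2 1.42.0 (median of ratios) in R 4.3.3.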

Additional observations from a re-analysis of the deposited data

Results flagged for a closer look

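A set of 4 genes differed in opposite directions in colon and spleen cycle-gene cells, each against the matched cells of its own library, with all 3 counting intervals on their side of no difference. The genes were flagged for this pattern itself, and the share of all compared genes that showed it is not given here. The count of 4 is therefore no result about these genes. The difference between tissues was not tested, and spleen has 24 cycle-gene cells in 1 library. Gadd45b, a growth arrest and stress gene, had log2 ratios of -0.87 in colon 1 and -1.09 in colon 2, against 1.84 (0.64 to 3.06) in spleen on 15 UMIs in cycle-gene cells and 12 in matched cells. Il10 had -0.48 and -0.39 in the colon libraries, against 2.93 (0.87 to 5.48) in spleen on 8 and 3 UMIs. Klrg1 had -1.11 and -0.82 in the colon libraries, against 0.93 (0.04 to 1.80) in spleen on 20 and 30 UMIs. Nfkbid, an inhibitor of NF-kB, had -2.54 and -0.65 in the colon libraries, against 1.71 (0.05 to 3.41) in spleen on 8 and 7 UMIs.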

How the results depend on the processing

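The share of counted genes past 2-fold depended on the fold, the filter and depth. The shares of 7.69% higher and 5.95% lower genes became 1.64% and 0.337% at 4-fold, 15.6% and 13.8% at 1.5-fold, and 1.95% and 0.718% with both intervals past no difference. They were 6.84% and 4.58% after thinning to 1000 UMIs and 7.29% and 4.94% without cells above the 95th percentile of UMIs, where fewer genes could be counted. Higher genes made 10.8% against all cells with 0 UMIs, not matched for depth, and 17.8% with no filter but 1 UMI in each library. Without colon replicate 1 the shares were 7.30% and 9.55%, and without colon replicate 2 they were 11.2% and 13.99%. Over the same genes, the number of lists with a median beyond 2-fold was 3, and was 3 or 4 in every alternative run. Of the list medians over these settings 62.7% lay within the spread between both libraries and 37.3% moved by more. Without the deepest cells the median log2 ratio was 1.21 for replication and 1.09 for mitosis, against 1.88 and 1.99 with them, and 0.59 and 0.46 over the fewer genes that could be counted without those cells.

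The share of cycle-gene cells in colon 1, colon 2 and spleen was 9.33%, 8.17% and 7.69% of cells with 2000 or more UMIs, 9.02%, 10.8% and 6.20% with 2 or more UMIs, and 3.61%, 2.75% and 2.12% with 2 different genes required. It was 3.61%, 2.87% and 1.79% without Cenpa, 2.30%, 1.38% and 0.653% with 3 different genes, and 2.13%, 2.35% and 1.31% after thinning. With 4 or more UMIs it was 3.44% and 4.07% in the colon libraries.

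Over 15 settings 1776 values of the named genes stayed within the range spanned by the counting intervals of both libraries, and 53 lay outside it. A further 16, all of genes called past 2-fold, had the other sign. For genes not called, a change of sign within the range was not counted apart. The log2 ratio became -0.17 for Pcna, -0.25 for Gart, -0.25 for Slc2a3, 0.13 for Gadd45a and 0.60 for Tcf7 without the deepest cells, whose exclusion left 22 and 82 cycle-gene cells. Thinning gave 0.0136 for Prpsap2, 0.45 for Ginm1, 0.50 for Cxcr6, 1.95 for Tcf7, -0.20 for Gart and -0.38 for Slc2a3. Requiring 3 different genes gave 0.26 for Mapk8 and 0.0183 for Ube2w, the rule without Cenpa 0.0456 for Mapk8 and 0.13 for Tcf7, and 4 or more UMIs 0.0034 for Tcf7. The causes were not tested.

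Without the deepest cells the log2 ratio of Stmn1 was 2.05. The median log2 ratio of all genes was 0.02, moved to 0.13 with unmatched cells and to -0.08 with TMM factors. No paired analysis was possible because no test was made and no label ties a colon library to the spleen library by animal. Cells were matched within their own library in every ratio.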

Other observations

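Outside the named lists, 2 further genes chosen after their values were seen were high in cycle-gene cells. 2810417H13Rik, for which RefSeq gives the symbol Pclaf, the PCNA clamp-associated factor, stood at 799.3 CPM in colon 1 and 316.97 CPM in colon 2, against 26.04 and 11.2 CPM in matched cells. In multi-gene cells 2810417H13Rik stood at 1203.98 and 691.3 CPM, against 6.82 and 13.6 CPM, log2 ratios of 7.46 (4.95 to 12.8) and 5.67 (4.26 to 7.58). Myb, a transcription factor gene of dividing progenitors, stood at 137.3 and 35.5 CPM in cycle-gene cells, against 3.72 and 4.47 CPM, on 17 and 12 UMIs.

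Interferon response genes went apart in the 2 colon libraries. Their list stood at 1437.2 CPM in cycle-gene cells and 1775 CPM in matched cells of colon 1, a ratio of 0.810 (0.678 to 0.964), and at 1389 and 1073 CPM in colon 2, a ratio of 1.29 (1.16 to 1.45). The effector list, lower in colon cycle-gene cells, stood at 1619 CPM in spleen cycle-gene cells, against 981.4 CPM in matched spleen cells, a ratio of 1.65 (1.30 to 2.09), and this difference between tissues was not tested.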
